A study of Mus musculus with 6 samples.

Results

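The genes described here are the mouse zinc finger genes with symbols from Zfp700 to Zfp999. They were taken by symbol from probe sets that the array's annotation assigns to exactly 1 gene, and for each gene the probe set with the highest mean over the 6 arrays was kept, which gave 96 genes of 19937 tested (101 probe sets in all). The cells, called A9M in the labels, were mouse haematopoietic stem and progenitor cells transformed by HoxA9 and Meis1, a model of acute myeloid leukaemia, grown with serum, IL3, IL6 and SCF. Of 6 arrays, 3 were of cells given the solvent DMSO for 5 days and 3 of cells given UNC0638 for 5 days, a chemical probe against 2 related histone methyltransferases, G9a (encoded by Ehmt2) and GLP (encoded by Ehmt1). Both groups carried the transforming genes, and the labels give neither a dose nor a statement that the samples came from different cultures. The p-values below therefore reflect only how far these samples scatter, and that scatter may be technical. The comparison asked which transcripts differ after UNC0638, and since the compound acts on both enzymes their shares cannot be told apart.

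Most genes with such symbols encode C2H2 zinc finger proteins, which read DNA through a row of fingers, each folded around a zinc ion. Many of them also carry a KRAB domain, which recruits the corepressor Trim28 and, through it, the H3K9 methyltransferase Setdb1 and heterochromatin proteins, and they are best known for silencing retroviruses and transposable elements. The genes multiplied by tandem duplication, lie in clusters, and are themselves known to be covered by H3K9 methylation in many cell types. G9a and GLP place mono- and dimethyl marks on the same histone residue. Because the copies are alike, a probe set named for 1 of these genes can read RNA of another, and each value below is uncertain to that extent.

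Defining markers of the labelled cell type were bright. Across the 6 arrays Ptprc (CD45) lay between 1296 and 1697, Kit between 289 and 404, Cd34 between 1550 and 2052 and Mpo between 5842 and 6450, and all 10 progenitor and myeloid genes looked at were measured. Of 12 genes of T, B, erythroid, fibroblast and epithelial cells, Ms4a1 had the lowest mean (15.7) and Cdh1 the highest (184). Ptprc, Cd34, Spn and the myeloid gene Itgam, and the dim Cd3g and Cd79a, lay wholly higher on the UNC0638 arrays, the largest of these differences being 0.46 for Itgam (limma adjusted p = 0.0709). The part of a shift in cell state in the results below was not tested. The UNC0638 arrays had median intensities of 53.4, 54.9 and 52.7, each above the DMSO medians of 50.4, 51.6 and 52.5. Their lower quartiles (21.6, 22.8 and 22.4) also exceeded those of the controls (20.9, 21.4 and 21.3). This offset follows the treatment, and its source was not tested. Results with median centring are given below. The precision is limited by the number of arrays.

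The response of the 96 genes to UNC0638 was small, and 1 gene passed the test. Zfp873 rose, and 0 genes fell (limma on log2(intensity + 16), Benjamini-Hochberg adjustment over all 19937 genes, threshold 0.05). Of all genes tested 0.371% rose, 0.301% fell and 0.672% changed in either direction, so 1 of 96 is near the background. At an unadjusted p under 0.05, 5 of the 96 were higher and 3 lower, against 6.47% and 6.21% of all genes. The 3 UNC0638 arrays lay above the 3 DMSO arrays in 7 genes (7.29%) and below them in 5 (5.21%), against 9.59% and 7.4% of all genes. Differences on the log2 scale ran from -0.34 for Zfp949 to 0.51 for Zfp719. Their median was 0.026, beside 0.012 over all genes, with 56 above 0 and 40 below. When each array was centred on its median the medians were -0.020 and -0.034, so the direction of the family as a whole was not settled.

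**Figure D1:**
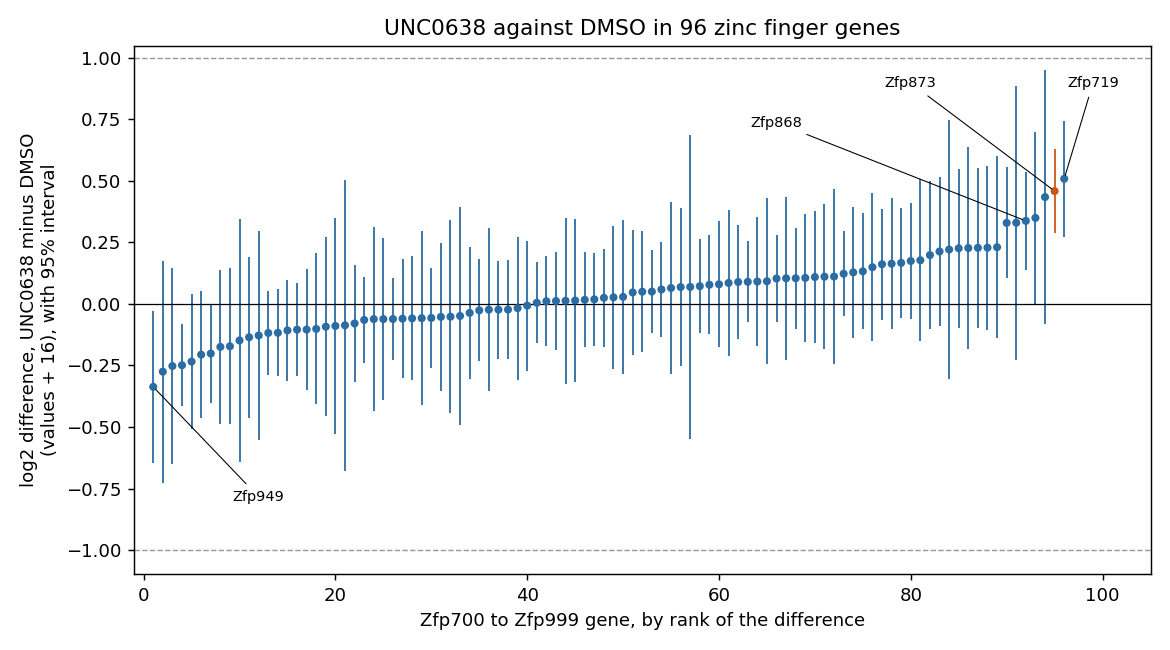
The log2 difference between UNC0638 and DMSO (vertical axis, with its 95% interval) is plotted for each of the 96 zinc finger genes in rank order (horizontal axis), with the gene that passed the test in orange and dashed lines at 2-fold changes. The points run from -0.34 to 0.51, and all 96 intervals lie between the dashed lines.

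The intervals bound the measured difference of each gene taken singly, on the scale of the deposited intensities. The 95% intervals of all 96 genes lay within 1 log2 unit (a 2-fold change) on either side of 0, and those of 72 within 0.5. The lowest bound of any interval was -0.73 and the highest 0.95. The pseudocount of 16 shrinks the differences of dim genes, and with a pseudocount of 1 the intervals of 94 genes lay within a 2-fold change. The remaining 2 were those of Zfp708 (-0.23 to 1.04) and Zfp939 (-0.038 to 1.21). A difference over 0.5 in either direction was measured for 1 of the 96 (1.04%), beside 2.08% of all genes.

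Zfp873, the gene that passed, read 27.9, 30.8 and 31.2 (linear intensity) with DMSO and 47.4, 45.3 and 48.6 with UNC0638. All 3 treated arrays were above all 3 controls, by a gap several times the spread within either group. The means were 30.0 ± 1.77 and 47.1 ± 1.65 (SD, n = 3 each), with a log2 difference of 0.46 (SE 0.075, 95% interval 0.29 to 0.63, limma adjusted p = 0.0428). This was 1.37-fold on the scale with the pseudocount. The call was lost in 10 of 15 alternative fits over genes, among them each of the 6 in which an array was left out (limma adjusted p = 0.0935 to 0.141). The difference itself lay between 0.24 with a pseudocount of 64 and 0.64 with a pseudocount of 1.

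Zfp719 showed the largest difference of the family and did not pass. Its intensities were 205, 163 and 196 with DMSO and 296, 263 and 261 with UNC0638. The groups did not overlap, and the means were 188 ± 22.4 and 273 ± 19.6 (log2 difference 0.51, SE 0.10, limma adjusted p = 0.0801). It passed in 0 of 16 alternatives, where the adjusted p ran from 0.0589 to 0.212. Zfp868 read 63.1, 58.7 and 65.0 with DMSO and 84.4, 74.7 and 89.9 with UNC0638 (log2 difference 0.34, SE 0.087, adjusted p = 0.142). Zfp975 read 29.8, 24.9 and 29.7 with DMSO and 41.8, 43.6 and 33.2 with UNC0638 (log2 difference 0.33, SE 0.099, adjusted p = 0.202). In both genes the groups stood apart, by a smaller margin in Zfp975, where UNC0638 array 3 was close to its controls.

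The 250 bases before the annotated start are shown for these 4 genes because they had the largest differences among genes whose treated arrays all lay above the controls. The sequences are RefSeq's on GRCm38.p6, 5′ to 3′. Capitals mark the strings CCAATCA and GGAGGCGG, searched on both strands, which were noticed in these windows after the values were known.
Zfp873, chr10:82047873-82048122, plus strand: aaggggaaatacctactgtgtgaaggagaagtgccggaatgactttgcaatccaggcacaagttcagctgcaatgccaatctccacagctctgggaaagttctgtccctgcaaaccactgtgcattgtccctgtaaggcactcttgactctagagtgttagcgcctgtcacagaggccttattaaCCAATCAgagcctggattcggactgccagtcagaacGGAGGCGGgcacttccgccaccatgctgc
Zfp975, chr7:42692719-42692968, minus strand: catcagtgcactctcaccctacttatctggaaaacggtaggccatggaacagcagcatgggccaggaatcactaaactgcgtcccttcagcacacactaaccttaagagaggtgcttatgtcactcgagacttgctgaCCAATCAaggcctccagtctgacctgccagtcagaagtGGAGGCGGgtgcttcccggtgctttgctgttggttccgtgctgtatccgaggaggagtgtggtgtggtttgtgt
Zfp868, chr8:69625549-69625798, minus strand: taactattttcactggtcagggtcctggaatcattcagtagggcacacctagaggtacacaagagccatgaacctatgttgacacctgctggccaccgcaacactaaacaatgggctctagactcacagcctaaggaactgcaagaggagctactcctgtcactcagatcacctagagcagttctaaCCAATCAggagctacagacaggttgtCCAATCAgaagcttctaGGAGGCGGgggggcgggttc
Zfp719, chr7:43579336-43579585, plus strand: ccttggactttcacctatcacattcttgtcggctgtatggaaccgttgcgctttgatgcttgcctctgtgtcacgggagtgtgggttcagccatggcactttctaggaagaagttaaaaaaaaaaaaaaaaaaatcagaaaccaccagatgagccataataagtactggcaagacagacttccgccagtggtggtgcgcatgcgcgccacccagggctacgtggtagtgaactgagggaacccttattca
In Zfp873, Zfp975 and Zfp868 a CCAATCA is followed by a GGAGGCGG on the same strand, and Zfp719 holds neither string in its window. In Zfp873 they begin 65 and 29 bases before the start, and in Zfp975 112 and 74 bases before it. Zfp868 has 2 copies of CCAATCA, 63 and 37 bases before the start shown, and a GGAGGCGG 20 bases before it. The window of Zfp868 shown is the second of the 2 annotated, and the first does not hold the pair. Zfp873 has another annotated start 4 bases further on.

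Windows of 300 bases (250 before to 50 after a start) were found for 85 of the 96 genes, 103 windows in all, since 15 genes have several starts. CCAATCA was in 31 of these windows (30.1%), beside 12.1% of 239 windows of the genes Zfp1 to Zfp699 and 7.82% of all 32851 windows. GGAGGCGG was in 12 (11.7%), beside 7.95% and 7.80%, and both were in 8 (7.77%), beside 1.67% and 0.904%. In these counts a string may lie on either strand, and the 2 may stand in any order and at any spacing. The windows in which the strings were noticed are counted in these shares, Zfp873 with both of its starts. The shares of the family therefore depend in part on that choice. The 8 windows belong to 7 genes, and 4 of these had a difference above 0 and 3 below. Zfp873, Zfp868 and Zfp975 are among the 4 above 0, and they had been printed for their rises. Besides these 3 the genes were Zfp872 (0.011), Zfp931 (-0.061), Zfp971 (-0.090) and Zfp788 (-0.28). The median of the 7 was 0.011, beside 0.048 for the 78 genes without both strings in a window. This tally and median depend in part on the same choice, so they say nothing of a link with the response. The shorter CCAAT box (CCAAT, contained in CCAATCA) was in 61.2% of the windows of the family, 38.9% of those of Zfp1 to Zfp699 and 37.4% of all. The ETS core CCGGAA was in 30.1%, 37.2% and 14.9%, the GC box GGGCGG, which can overlap GGAGGCGG, in 43.7%, 46.4% and 35.7%, the E-box CACGTG in 12.6%, 4.18% and 7.15%, and TATAAA in 6.80%, 7.95% and 13.6%, on either strand in each case. The windows held a median of 10 CpG dinucleotides, beside 16 for Zfp1 to Zfp699 and 7 for all windows. These matches describe the sequence and were not tested against the response.

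**Figure D2:**
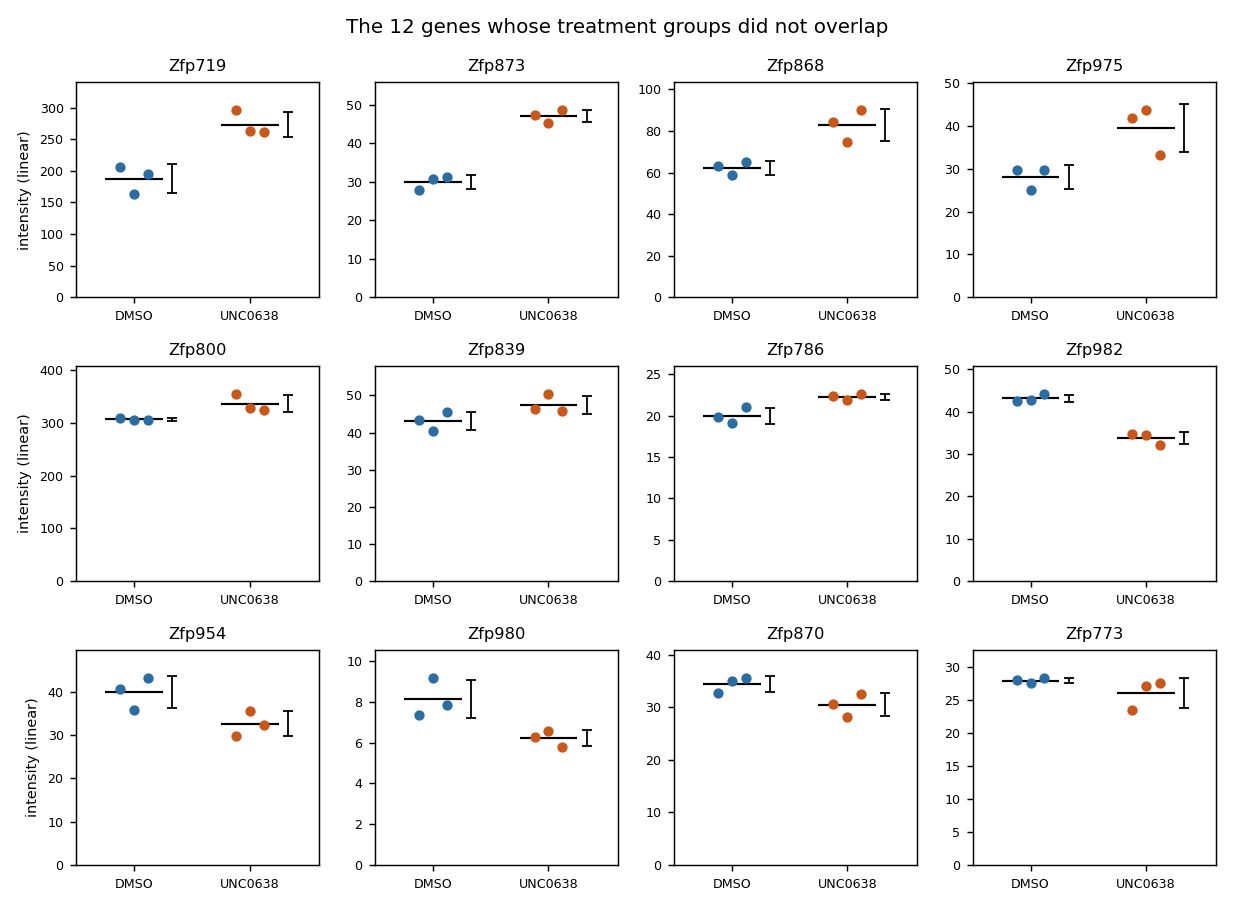
Linear intensities of the 12 zinc finger genes whose 3 UNC0638 arrays all lay above or all below the 3 DMSO arrays are plotted as points, with a black line at the mean of each group and a bar for ± 1 SD beside it (n = 3 each, axes from 0). The first 4 panels hold the largest log2 differences upward, with means of 188 and 273 in Zfp719, and Zfp982 the largest downward, with means of 43.1 and 33.8.

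The other 3 genes with all treated arrays above the controls differed by little. Zfp800 read 310, 305 and 306 with DMSO and 354, 328 and 325 with UNC0638 (log2 difference 0.12, SE 0.075, limma adjusted p = 0.584). Zfp839 was at 43.1 ± 2.53 and 47.5 ± 2.47 (0.10) and Zfp786 at 20.0 ± 0.977 and 22.3 ± 0.390 (0.090). Both are separated by less than 1 intensity unit between the nearest arrays of the groups. Among the genes with all treated arrays below the controls, Zfp982 read 42.6, 42.7 and 44.1 with DMSO and 34.7, 34.5 and 32.1 with UNC0638. The means were 43.1 ± 0.849 and 33.8 ± 1.5, a log2 difference of -0.25 (SE 0.073, adjusted p = 0.194). Zfp954 was at 39.9 ± 3.71 and 32.6 ± 2.92 (-0.20, adjusted p = 0.387) and Zfp870 at 34.4 ± 1.52 and 30.5 ± 2.20 (-0.12, adjusted p = 0.620), none of them past the limma threshold. Zfp773 (27.9 ± 0.386 and 26.0 ± 2.23, -0.065) and Zfp980 (8.12 ± 0.939 and 6.22 ± 0.393, -0.12) were the dimmest of the 5, and the difference of Zfp773 was -0.021 without UNC0638 array 1. Zfp980 lay below the lower quartile of every array, where the pseudocount hides most of a difference.

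The most negative difference was that of Zfp949, and its groups overlapped. It read 114, 102 and 75.4 with DMSO and 79.4, 65.4 and 74.2 with UNC0638 (log2 difference -0.34, SE 0.13, limma adjusted p = 0.343). DMSO array 3 lay among the treated arrays. Zfp939 (41.4 ± 16.2 and 60.3 ± 16.7, 0.43) and Zfp959 (29.7 ± 7.10 and 42.3 ± 9.78, 0.35) had positive differences with overlapping groups, and neither passed the test.

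Several members have a role known from other work, and none of those given here passed the limma test. Zfp809, which binds the primer binding site of murine leukaemia proviruses and recruits Trim28 to silence them, read 297, 298 and 374 with DMSO and 343, 323 and 396 with UNC0638. The ranges overlapped, and the log2 difference was 0.13 (SE 0.12, 95% interval -0.14 to 0.39, adjusted p = 0.740). It was 0.048 without UNC0638 array 3, 0.074 without DMSO array 1, 0.077 without DMSO array 2 and 0.23 without DMSO array 3. Zfp819, a repressor of endogenous retroviral elements in embryonic stem cells, was at 28.7 ± 2.65 and 34.2 ± 5.21 (0.17, adjusted p = 0.564). Zfp706, which promotes the exit of embryonic stem cells from self-renewal, read 1274, 1698 and 1515 with DMSO and 1613, 1523 and 1287 with UNC0638 (-0.017, SE 0.13, adjusted p = 0.979). Zfp746 (PARIS), a substrate of the ubiquitin ligase parkin, was at 0.20, with an interval of -0.10 to 0.50. Zfp750, a regulator of epidermal differentiation, was at -0.23 (-0.51 to 0.041). Zfp703, a zinc finger corepressor outside the KRAB class, was at 0.018 (-0.17 to 0.21). Zfp704, also outside that class, was at -0.059 (-0.31 to 0.19). Zfp711, an X-linked gene, was at 0.17 (-0.060 to 0.41) at intensities of 11.1 to 20.1, below the lower quartile of each array.

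The spread between arrays of a group was wider in this family than in genes at large. The median residual SD within groups was 0.17 log2 units for the 96 genes, 0.15 for Zfp1 to Zfp699 and 0.12 for all genes. With all genes ranked by mean intensity and divided into 4 classes of like size, the brightest class held 8 of the 96, and the median residual SD there was 0.22 beside 0.14. In the other classes, from the dimmest up, it was 0.093 beside 0.086, 0.16 beside 0.12 and 0.21 beside 0.15. Zfp933 (0.47), Zfp985 (0.44), Zfp708 (0.42) and Zfp935 (0.39) had the widest spread. Zfp985 read 251, 292 and 398 with DMSO and 442, 204 and 266 with UNC0638, so that both the highest and the lowest value came from treated cells. Zfp991 read 485, 418 and 498 with DMSO and 580, 354 and 430 with UNC0638, and Zfp971 read 381, 298 and 270, then 394, 228 and 279. In 6 of the 96 genes (6.25%) UNC0638 array 1 was the highest and UNC0638 array 2 the lowest of all, beside 1.45% of all genes. The 6 were Zfp810, Zfp825, Zfp961, Zfp971, Zfp985 and Zfp991. The pattern was noticed after the values were seen, and the part of probes that read more than 1 of these genes was not tested. UNC0638 array 1 held the highest value of 22 of the 96 genes (22.9%, beside 10.6% of all genes), more than any other array. The lowest value was on DMSO array 2 in 24 genes (25%, beside 17.6% of all genes) and on UNC0638 array 2 in 21 (21.9%, beside 14.1%). It was on UNC0638 array 1 in 8 (8.33%, beside 17.1%) and on UNC0638 array 3 in 7 (7.29%, beside 16.1%). These counts by array were not made for Zfp1 to Zfp699, so they are not shown to be particular to this family.

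**Figure D3:**
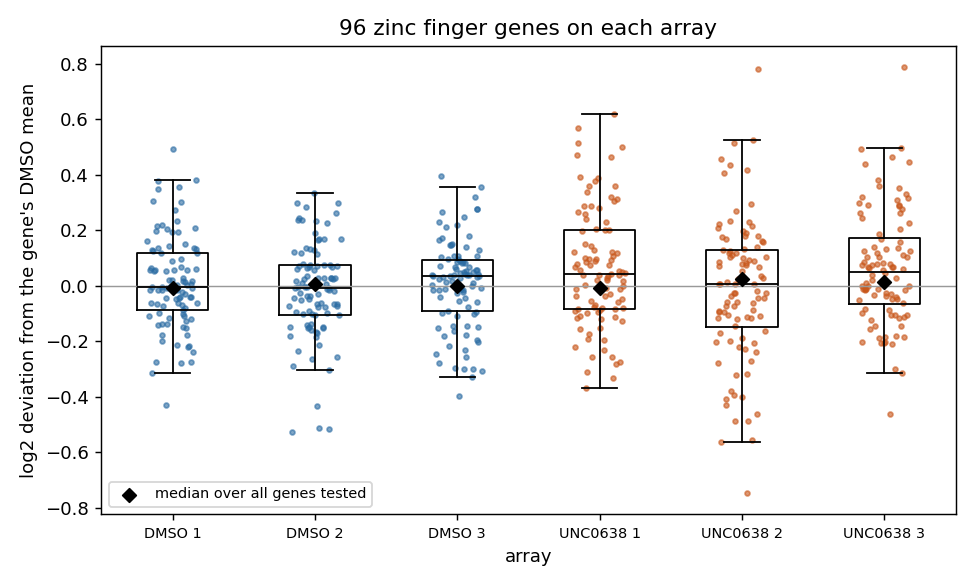
Each point is 1 of the 96 zinc finger genes on 1 array (horizontal axis), as the log2 deviation from that gene's mean over the DMSO arrays (vertical axis). Boxes span the quartiles with the median inside, whiskers reach the last point within 1.5 box lengths, and diamonds mark the median over all genes tested. Medians of the family lie between -0.0099 and 0.050 on the 6 arrays, against a wider scatter of single genes on every array.

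By position, 53 of the 96 genes fell into 18 groups of neighbours, in which consecutive members had at most 5 other genes of the GRCm38.p6 gene table between them, and 43 stood alone. Both members were above 0 in the pair of Zfp719 and Zfp819 (0.51 and 0.17), in that of Zfp873 and Zfp938 (0.46 and 0.15) and in that of Zfp790 and Zfp940 (0.049 and 0.23). The 3 neighbours Zfp868, Zfp869 and Zfp866 were at 0.34, 0.11 and 0.072, and Zfp872, Zfp809 and Zfp810 at 0.011, 0.13 and 0.046. All 3 were below 0 among Zfp982, Zfp985 and Zfp979 (-0.25, -0.087 and -0.10) and among Zfp954, Zfp773 and Zfp772 (-0.20, -0.065 and -0.080), and both were below 0 in the pair of Zfp971 and Zfp931 (-0.090 and -0.061). In all, 5 groups lay above 0, 3 below 0 and 10 held both signs. The 2 largest groups, of 6 genes each, held both signs. In the group from Zfp948 to Zfp943 the differences ran from -0.25 to 0.18, and in that from Zfp871 to Zfp763 from -0.14 to 0.092. Apart from Zfp873, no gene in these groups passed the test, so the signs of neighbours are given as values only.

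**Figure D4:**
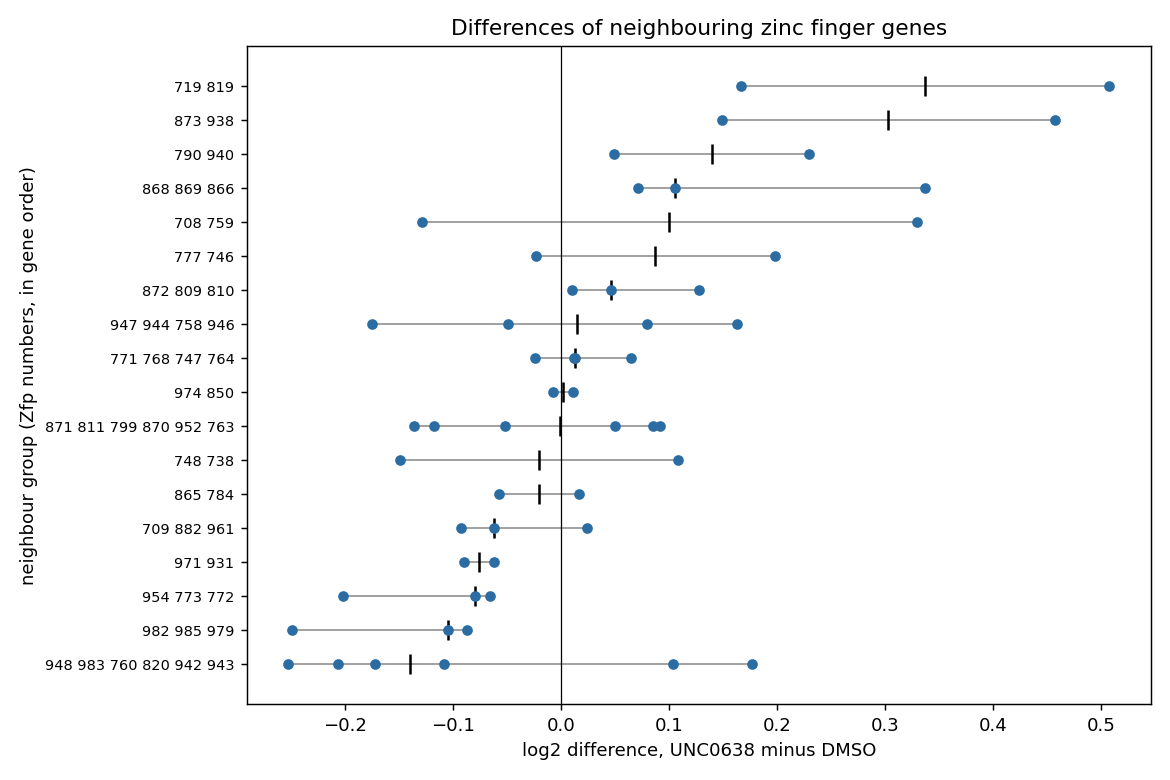
Log2 differences between UNC0638 and DMSO (horizontal axis) are plotted for the 53 zinc finger genes that lie in 18 neighbour groups (vertical axis, ordered by median, labelled by Zfp number in gene order), with a grey line over each group's range and a black tick at its median. Groups at the top, such as Zfp719 with Zfp819, lie above 0, and the 2 groups of 6 genes span it.

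The start windows record the family's duplications. Read in each gene's own direction, the windows of 13 pairs of genes aligned over at least 100 bases. Zfp758 and Zfp943 were 99.7% identical over 293 bases, and their log2 differences between treatments were 0.080 and 0.18. Zfp942 and Zfp944, 99.6% identical over 275 bases, had differences of -0.25 and -0.17, and Zfp931 and Zfp971, 97.0% identical over 270 bases, of -0.061 and -0.090. Zfp979, Zfp980, Zfp982 and Zfp985 were 85.1% to 91.9% identical to each other, and all 4 had a difference below 0 (-0.10, -0.12, -0.25 and -0.087). Of the 13 pairs, 11 had differences of like sign and 2 of opposite sign. Every pair among Zfp979, Zfp980, Zfp982 and Zfp985 is counted in the 11. The 2 of opposite sign were Zfp747 with Zfp764 (90.1% identical, 0.065 and -0.023) and Zfp950 with Zfp971 (74.9% identical, 0.23 and -0.090). Within a pair of such likeness the 2 values may not be separate measurements. Windows that overlap on opposite strands are not among the 13 pairs. Those of Zfp942 and Zfp943 overlap in this way, with differences of opposite sign (-0.25 and 0.18). So do those of Zfp944 and Zfp758 (-0.17 and 0.080).

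Where a gene had several probe sets, the others were also read. Zfp985 had a second probe set at 7.12 in DMSO and 8.06 in UNC0638, under the lower quartile of the arrays, beside 314 and 304 for the one kept. Zfp738 had 3, with log2 differences of -0.15, -0.039 and 0.13, which disagree in sign. The 2 of Zfp825 were at -0.058 and -0.18, and the 2 of Zfp706 at -0.017 and -0.026. A further 26 probe sets carry such a symbol beside other symbols and were left out of the family. Tested with limma over all 34760 probe sets, 0 of them passed (0.0115% of all probe sets did), and 2 were higher and 2 lower at an unadjusted p under 0.05, beside 5.89% and 4.56% of all probe sets. The family lay in the middle of the intensity range with few bright probe sets. Its median intensity was 62.2, beside 64.7 for all genes, and from the dimmest to the brightest of the 4 intensity classes it had 19, 31, 38 and 8 genes. The 8 genes at an unadjusted p under 0.05 were all in the 2 middle classes, which hold most of the family. In the dimmer of these 3 were higher and 2 lower (9.68% and 6.45%, beside 5.56% and 1.97% of all genes there). In the brighter 2 were higher and 1 lower (5.26% and 2.63%, beside 8.63% and 8.09%). Of all genes, 2.05% and 0.441% were so called in the dimmest class and 9.63% and 14.4% in the brightest. Intensities of different probe sets do not rank transcripts.

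Partners through which KRAB proteins act, with related genes, were measured as a list of 27 genes. It held the corepressor, its methyltransferase, heterochromatin proteins, G9a and its partners, and the HUSH, NuRD and DNA methylation machinery. Atrx, Daxx, Smarcad1, Morc3, Sumo2 and Pias1 were also in it. None of the 27 passed by limma. At an unadjusted p under 0.05, 2 were higher (7.41%, beside 6.47% of all genes) and 4 lower (14.8%, beside 6.21% of all genes and 14.4% of the brightest intensity class). The median was -0.029, beside 0.012 over all genes. The treated arrays lay below the controls in 7 genes (25.9%) and above in 2, against 7.4% and 9.59% of all genes. The list is bright, with 20 of its genes in the brightest intensity class, where 15.4% of all genes lay wholly below the controls. The 7 below were Trim28, Setdb1, Ehmt2, Cbx5 (log2 difference -0.11), Daxx (-0.38, the most negative of the list), Hdac1 (-0.16) and Uhrf1 (-0.31). The 2 above were Atrx (log2 difference 0.22) and Chd3 (0.14). The 2 higher at an unadjusted p under 0.05 were Atf7ip (0.34) and Pias1 (0.31), both with overlapping groups. Of the 27 differences, 12 were above 0 and 15 below. Trim28 read 489, 463 and 475 with DMSO and 394, 446 and 428 with UNC0638 (log2 difference -0.17, SE 0.080, adjusted p = 0.454). Setdb1 read 370, 402 and 335 with DMSO and 304, 287 and 265 with UNC0638 (-0.35, SE 0.094, adjusted p = 0.154). Ehmt2, the gene of G9a, read 112, 137 and 119, then 98.7, 99.8 and 103 (-0.25, SE 0.089, adjusted p = 0.293), and Ehmt1 was at -0.040 (SE 0.088, adjusted p = 0.920). UNC0638 acts on the enzymes, so the transcripts of Ehmt2 and Ehmt1 do not check the treatment.

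The zinc finger genes numbered Zfp1 to Zfp699, 221 of which were measured, are the nearest set for comparison. Of these 0 passed by limma. At an unadjusted p under 0.05, 6 were higher (2.71%, beside 6.47% of all genes) and 9 lower (4.07%, beside 6.21%). Their differences ran from -0.45 to 0.45 with a median of 0.011. Treated arrays lay above the controls in 17 (7.69%, beside 9.59%) and below in 11 (4.98%, beside 7.4%). Both sets are shown by counts and medians, and the difference between them was not tested.

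**Figure D5:**
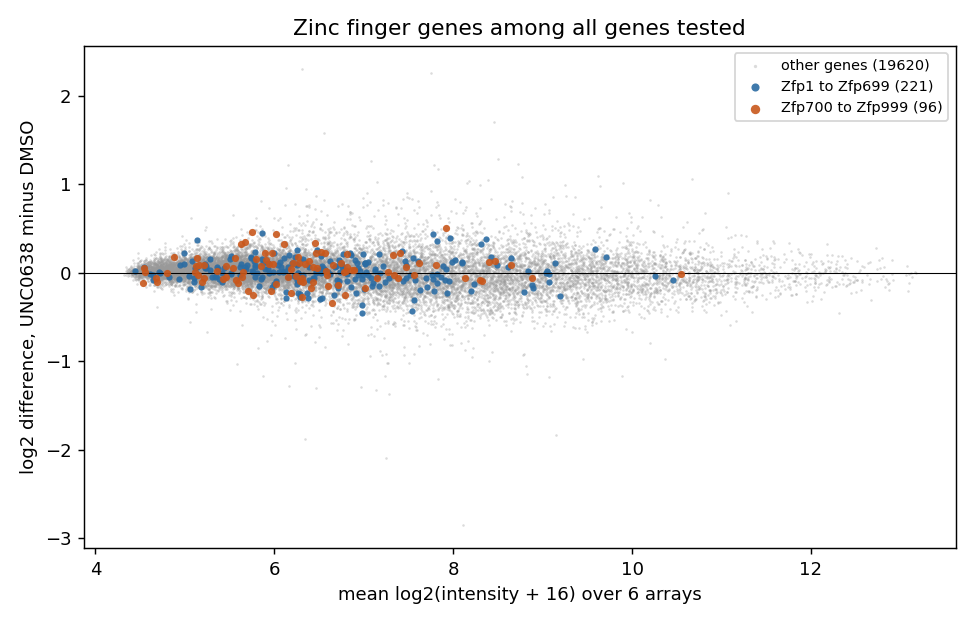
The log2 difference between UNC0638 and DMSO (vertical axis) is plotted against the mean log2(intensity + 16) over the 6 arrays (horizontal axis) for all 19937 genes, with the 96 genes Zfp700 to Zfp999 in orange and the 221 genes Zfp1 to Zfp699 in blue. The orange points stay between -0.34 and 0.51, while differences of other genes run from -2.86 to 2.31.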

How the data were processed

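Biotinylated cRNA from total RNA was hybridised to Affymetrix arrays, per the labels' protocols. The authors deposited 1 processed intensity per probe set and array, on a linear scale (2.74 to 19527). How they were summarised, corrected for background and normalized is not given in the sources used here. Such steps can shrink differences of dim probe sets. Of 34760 probe sets, 21640 carry 1 gene symbol, 1321 several and 11799 none, by the platform annotation. Symbols were looked up by Entrez number in a GRCm38.p6 table (21553 found, 0 changed).

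Values were used as deposited, as log2(intensity + 16), 1 probe set per gene (highest mean over 6 arrays). The treatment contrast was fitted by limma 3.58.1 (lmFit and eBayes under R 4.3.3, with group as the only term and 3 arrays each), with Benjamini-Hochberg adjustment over 19937 genes. The procedure was also run on simulated data with independent noise. Recovery was required there only for differences larger than any in the family, so that run does not show what is detected at the sizes seen here. Intervals are 95%, from the moderated SE with 8.47 degrees of freedom. Promoter windows were aligned locally with Biopython 1.88, each in its gene's own direction only. Figures used matplotlib 3.10.9.

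Members and lists were chosen with earlier results of these data known. Genes named by rule are members past the threshold, up to 10 per direction whose groups do not overlap, the 5 brightest probe sets (Zfp706, Zfp991, Zfp871, Zfp809 and Zfp800), partners past the threshold, and Trim28, Setdb1, Ehmt2 and Ehmt1. The remaining genes were named after their values were seen or for a known role. Zfp871 was at 374 ± 51.3 in DMSO and 398 ± 58.7 in UNC0638 (0.085, limma adjusted p = 0.870), and Zfp991 had a difference of -0.062 (adjusted p = 0.936). The planned grouping by protein motifs was not made, since no protein sequences were used here. Alternatives covered scaling, a filter on dim genes, the probe set kept, prior, replicate block, array weights, pseudocount, threshold, membership and each array left out. A further alternative, every probe set tested by itself, was chosen after seeing the data.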

Additional observations from a re-analysis of the deposited data

How the results depend on the processing

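The number of genes Zfp700 to Zfp999 that rose was 1 as reported. It was 0 with quantile normalization, median centring, the filter on the dimmest 40% (which kept 61 of the 96 genes and dropped Zfp873), the replicate block, a pseudocount of 64, an adjusted p of 0.01, or all probe sets tested together, and 0 to 0 with each array left out in turn. It stayed at 1 with the mean or the dimmest of a gene's probe sets, the trended robust prior, array weights, a pseudocount of 1 and suffixed symbols as members. The number that fell was 0 throughout. All genes called numbered 134 as reported, 192 with dim genes filtered out, 182 under the trended robust prior, 10 to 69 with an array left out, 73 with the replicate block, 49 with a pseudocount of 64, 18 at 0.01 and 4 over all probe sets. Zfp873 then had an adjusted p of 0.0519 with quantile normalization, 0.0700 with median centring, 0.0998 with the replicate block and 0.0747 with a pseudocount of 64. The cause of each loss was not tested. The median of the family, 0.026, was -0.020 with median centring and from 0.014 to 0.054 with an array left out, the highest without UNC0638 replicate 2. With an array left out the difference ran from -0.13 to 0.078 for Zfp706, -0.25 to 0.097 for Zfp991, -0.017 to 0.19 for Zfp871 and -0.093 to 0.0061 for Ehmt1. The sign turned for Zfp706 with quantile normalization (0.013), array weights (0.0035), and without DMSO replicate 2 (0.078) or UNC0638 replicate 3 (0.077), for Zfp991 without UNC0638 replicate 2 (0.097), for Zfp871 without UNC0638 replicate 3 (-0.017) and for Ehmt1 without DMSO replicate 2 (0.0061). Deviations from the group means had correlations over genes of -0.066, 0.11 and 0.017 between arrays of the same number. Between arrays of different numbers the correlations ran from -0.13 to 0.11. With so few arrays these values cannot show whether the numbers pair the samples, and the labels do not state a pairing.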

Other observations

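Probe sets that the annotation assigns to several genes were left out of the family, and 26 of them carry a symbol from Zfp700 to Zfp999. Their 35 such symbols include 20 that no measured member stands for, Zfp932 among them. The 2 that were lower at an unadjusted p under 0.05 are both shared by Zfp932 and Gm15446, and they had larger negative differences than any of the 96 genes. Probe set 10524079 read 252, 125 and 168 with DMSO and 117, 100.1 and 71.3 with UNC0638 (log2 difference -0.79, SE 0.26, limma adjusted p = 0.371). Probe set 10524082 read 333, 258 and 328 with DMSO and 221, 254 and 209 with UNC0638 (-0.40, SE 0.13, limma adjusted p = 0.354). In both probe sets the treated arrays all lay below the controls, by a narrow margin at the nearest arrays. Probe sets 10532305 and 10532310 also carry Zfp932, beside other symbols, and were at -0.053 and -0.28 with overlapping groups. The 2 probe sets that were higher at an unadjusted p under 0.05 had groups that did not overlap. Probe set 10479217, shared by Zfp965, Zfp931, Zfp971 and others, read 99.5, 83.8 and 80.5 with DMSO and 104, 113 and 110.3 with UNC0638 (0.27, SE 0.092, limma adjusted p = 0.385). Probe set 10551417, shared by Zfp850, Zfp974 and others, read 36.9, 40.3 and 40.3 with DMSO and 48.3, 44.1 and 53.6 with UNC0638 (0.23, SE 0.084, limma adjusted p = 0.420). Other shared probe sets of these genes did not show the rise, and their groups overlapped. For Zfp931 and Zfp971 they were 10490250 (-0.13) and 10490294 (-0.058), and for Zfp850 and Zfp974 10551426 (0.046). A further probe set, 10476939, shared by Zfp442, Zfp937 and 3300002I08Rik, read 115, 82.1 and 149 with DMSO and 124, 192 and 274 with UNC0638 (0.66, SE 0.30, limma adjusted p = 0.516), with overlapping groups. These probe sets were singled out after their values were seen.

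Of 7 measured genes whose symbol has a letter after the 3 digits, 0 passed by limma. Zfp780b was higher at an unadjusted p under 0.05, reading 109, 104 and 92.9 with DMSO and 123, 122 and 139 with UNC0638, a log2 difference of 0.29 with SE 0.090 (limma adjusted p = 0.220). That is 14.3% of the 7, beside 6.47% of all genes. Zfp729a and Zfp729b were at 0.27 (limma adjusted p = 0.481) and 0.21 (limma adjusted p = 0.476), and Zfp874a was at 0.14. Zfp804a, Zfp804b and Zfp874b were at 0.064, -0.11 and -0.025, so 5 differences were above 0 and 2 below. In 2 genes, Zfp780b and Zfp874a, the treated arrays all lay above the controls (28.6%, beside 9.59% of all genes). With so few genes these shares are imprecise.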
